A study of Homo sapiens with 4 samples.

Results

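The genes described here are 9 genes of polyamine metabolism, ODC1, AMD1, SRM, SMS, SAT1, SMOX, OAZ1, OAZ2 and AZIN1, taken by their symbols from the 15113 genes of an RNA-seq table. The cells were of the MDA-MB-231 line, which is derived from a triple-negative breast cancer, and were kept for 24 h with the solvent DMSO or with 10 µM KH-3, a small molecule that blocks the binding of the RNA-binding protein HuR to its target mRNAs. Each condition had 2 libraries. The table gives for each of 43596 transcripts 1 mean normalized read count, which the authors averaged over libraries, so that the values below are levels over the experiment and carry no spread between replicates. Which libraries enter that mean is not stated in the sources used here, and libraries of a 5 µM KH-3 group that the methods also name may be among them. The table's fold changes and p-values are the authors' own comparison of KH-3 with DMSO and are not used, so no effect of KH-3 on these genes is reported. All 9 genes were listed, with 39 transcripts between them.

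Polyamines (putrescine, spermidine and spermine) are small cations that bind nucleic acids and are needed for cell growth. Ornithine decarboxylase, encoded by ODC1, makes putrescine, and AMD1 supplies the aminopropyl groups that SRM and SMS add to make spermidine and spermine. SAT1 acetylates polyamines for export or breakdown, and SMOX oxidizes spermine back to spermidine. The antizymes OAZ1 and OAZ2 bind ornithine decarboxylase, send it to the proteasome and restrain polyamine uptake, and AZIN1 is an inactive relative of the enzyme that draws the antizymes away from it. Polyamines themselves raise antizyme synthesis, by a ribosomal frameshift on the antizyme mRNA.

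The identity of the cells was checked with genes known to mark this line. All 5 genes chosen as present had rows in the table. In mean normalized reads per kilobase of transcript, VIM had a level of 10135, KRT18 of 5378, AXL of 2820, CD44 of 427 and KRT8 of 384. Of the 6 genes chosen as absent or low, the 5 genes ESR1, PGR, CDH1, PTPRC and ALB had no row, and ERBB2 stood at 44.3. A missing row does not show that a gene is unexpressed, because the lowest mean listed was 7.34 and lower values cannot be seen. Because these are bulk RNA levels, fewer cells expressing a gene and less RNA per cell cannot be told apart.

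Most of the polyamine genes were abundantly expressed. The level of a gene was taken as the sum over its transcripts of the authors' mean divided by transcript length in kilobases. On this scale the median gene of the table had 108 and the 90th percentile of genes was 797. Of the 9 genes, 8 lay above the median and 7 above the 90th percentile. The median of the 9 was 1636, which is 15.1 times that of all genes. The 2 genes below the 90th percentile were AMD1 and SMOX. Highest of the 9 was OAZ1 and lowest was SMOX, and their levels differed 517-fold, while the 7 genes above the 90th percentile lay within 3.11-fold of each other. The 9 genes together took 0.175% of all mean normalized reads. By role, the levels of the 4 synthesis genes summed to 6461, those of the 3 regulators to 6253 and those of the 2 catabolic genes to 1044. These sums count transcripts of every type. The sum of the regulators includes 2796 from OAZ1-009, annotated as retained intron. In the catabolic sum, 85.3 came from SAT1-001, the full-length coding transcript of SAT1.

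**Figure D1:**
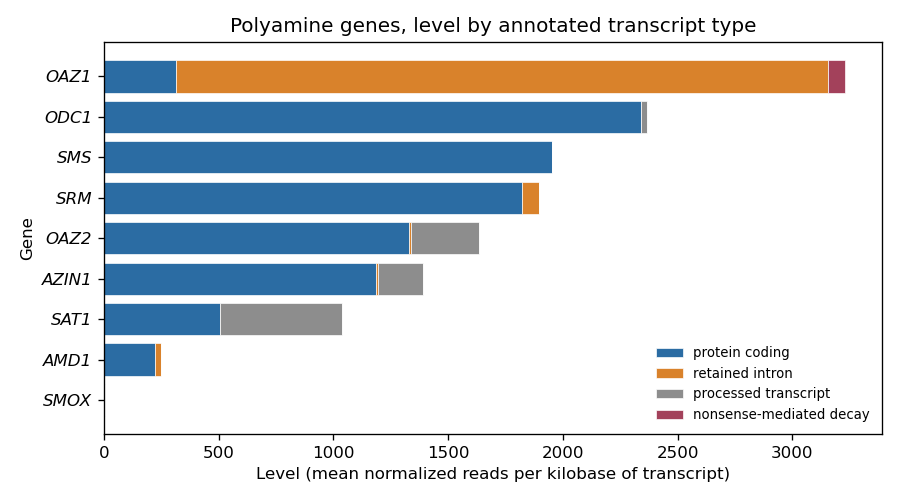
Level of each polyamine gene, in mean normalized reads per kilobase of transcript (horizontal axis, linear), stacked by the transcript type in the deposited table. OAZ1 reached 3229 and was drawn mostly from retained-intron transcripts, whereas ODC1 at 2366 was nearly all protein coding, and SMOX at 6.25 is not visible at this scale.

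The order of the levels was OAZ1, ODC1, SMS, SRM, OAZ2, AZIN1, SAT1, AMD1 and SMOX. Neighbours from OAZ1 down to SAT1 were 1.03 to 1.36 times apart. Without values per library it is unknown which of these steps exceed the spread between replicates. The steps from SAT1 to AMD1, of 4.21 times, and from AMD1 to SMOX, of 39.4 times, were much wider. As positions among all genes, given as the percentage of the other genes with a lower level, OAZ1 was at 98.5, ODC1 at 97.6, SMS at 96.9 and SRM at 96.8. OAZ2 was at 96.0, AZIN1 at 95.0, SAT1 at 92.7, AMD1 at 69.5 and SMOX at 6.85.

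**Figure D2:**
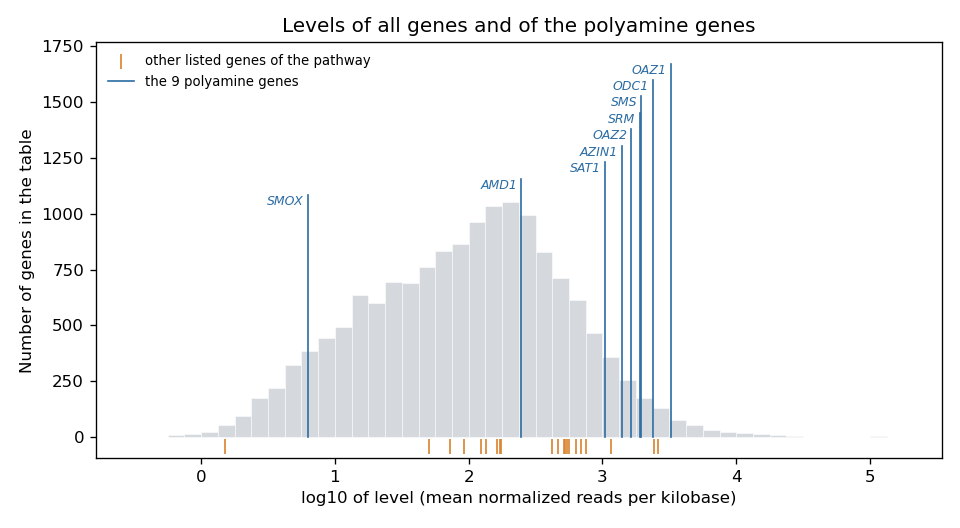
Number of genes in the table (vertical axis) by log10 of their level in mean normalized reads per kilobase, with the 9 polyamine genes as labelled lines and the 21 other listed genes of the pathway as ticks below 0. The 7 genes above the 90th percentile crowd the upper tail, AMD1 at 246 lies above the median of 108, and SMOX at 6.25 lies in the lower tail.

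Among the synthesis genes, the enzyme that starts the pathway and both aminopropyl transferases were high and the supplier of aminopropyl groups was lower. ODC1 (hg38 chr2:10439968-10448327, minus strand, in GENCODE release 44, as for all positions here) had a level of 2366. SMS (chrX:21940709-21994837, plus strand) had 1954. SRM (chr1:11054584-11060020, minus strand) had 1895, so that the spermine and spermidine synthase mRNAs differed by a factor of 1.03. AMD1 (chr6:110874770-110898879, plus strand) had 246. The ODC1 level was thus 9.60 times, and the SRM level 7.69 times, that of AMD1.

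ODC1 was carried by a pair of coding transcripts with the same coding length of 1386 bases. ODC1-002, with a 3′UTR of 123 bases, had a mean of 3758 normalized reads, or 77.5% of the gene's reads, and was at percentile 99.3 of all transcripts. ODC1-001, with a 3′UTR of 756 bases, had 1076. Per kilobase, the form with the short 3′UTR held 82.7% of the level of these forms. The forms also differ in the 5′UTR, of 434 bases in ODC1-002 and 334 in ODC1-001, so the split is not one of the 3′UTR alone. ODC1-001 had 2653 bases as quantified by the authors and 2476 in release 44, so its UTR lengths may differ from those given. ODC1-004, a processed transcript in the table, had 17.5 reads.

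SMS showed the opposite split. SMS-003, with a 3′UTR of 486 bases, had a mean of 3145 normalized reads, and SMS-002, with a 3′UTR of 122 bases and 2 fewer exons, which shortens its coding sequence from 1101 to 942 bases, had 283. The longer form therefore held 87.6% of the SMS level per kilobase. AMD1 lay between these cases. AMD1-003, with a 3′UTR of 2097 bases, had 319 reads and AMD1-005, with a 3′UTR of 366 bases, had 208, while the retained-intron transcripts AMD1-006 and AMD1-007 had 107 and 7.98. Per kilobase the shorter AMD1 form held 58.3% of the level of the coding forms. This form, AMD1-005, also has a shorter coding sequence, of 798 bases against 1005 in AMD1-003. Its 5′UTR is longer, with 441 bases against 321. In SRM the full-length transcript SRM-001 had 962 reads, and the short fragments SRM-004 and SRM-006, of 461 and 402 bases, had 238 and 219. Counted per kilobase these fragments made up 27.3% and 28.7% of the SRM level, and they had 385 and 312 bases in common with SRM-001, so that reads in the shared bases had to be divided between them by estimate.

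The catabolic genes were the farthest apart of the 3 functional groups. SAT1 (chrX:23783173-23786210, plus strand) had a level of 1037 and SMOX (chr20:4120980-4187747, plus strand) had 6.25, a ratio of 166. These levels are sums over all transcripts. Of the SAT1 level, 8.22% was on its full-length coding transcript SAT1-001, at 85.3 per kilobase, so the ratio is not one of coding mRNAs alone. SMOX was listed with a single coding transcript of 2233 bases and 13.9 reads, where the lowest mean in the table was 7.34. Its level rests on the fewest reads of the 9 genes.

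SAT1 stood out by the make-up of its transcripts. Its 1002 reads were spread over 7 transcripts, none with more than 25.8%, and only 9.06% of them were on SAT1-001, the full-length coding transcript, with 90.8 reads. SAT1-002 had 254 reads. It has the 6 exons of SAT1-001, without the first 24 bases, and 1 further exon of 110 bases, which is exon 4, from 23784294 to 23784403. Inclusion of this exon is known to fall when polyamines are abundant. The reading frame meets a stop codon after 14 bases of it, and SAT1-002 is annotated in release 44 as a target of nonsense-mediated decay. These 14 bases are shown because they hold that stop, which is in capitals (chrX:23784294-23784307, plus strand).
SAT1 extra exon: gttacagtctcTAG

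Per kilobase, SAT1-002 was 2.62 times as high as SAT1-001. Of the remaining SAT1 reads, 259 were on SAT1-006, 216 on SAT1-004, 136 on SAT1-003 and 34.3 on SAT1-007, all annotated in release 44 as transcripts with a retained intron. SAT1-009, with 12.3 reads, is not in that release. SAT1-003 and SAT1-004 were labelled protein coding in the table, so the share of SAT1 reads on coding transcripts was 44.2% by the table's types and 9.06% by those of release 44. For the other 8 genes this share was the same by both releases.

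The antizyme genes were high in level but differed in how their reads were assigned. The levels of OAZ1 (chr19:2269509-2273490, plus strand) and OAZ2 (chr15:64687573-64703281, minus strand), of 3229 and 1636, differed by a factor of 1.97. Summed over all transcripts, OAZ1 was at 1.36 times the level of its target ODC1. Of the OAZ1 level, 86.6% was on OAZ1-009, annotated as retained intron. The coding transcript OAZ1-002 had 304 per kilobase, against 1934 and 405 for ODC1-002 and ODC1-001. With protein-coding transcripts only, OAZ1 was 7th of the 9 genes and ODC1 was 1st.

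Antizyme protein is made only when the ribosome skips 1 base at the stop codon that closes the first reading frame. The sequence around that stop is shown for both genes because the annotation of the coding transcripts turns on it, with the last sense codon and the stop codon in capitals (OAZ1 at chr19:2271431-2271457, plus strand, and OAZ2 at chr15:64691501-64691527, minus strand).
OAZ1 frameshift site: cggtggtgcTCCTGAtgcccctcaccc
OAZ2 frameshift site: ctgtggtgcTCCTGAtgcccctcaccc

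These windows of 27 bases were identical at 26 positions, including all 18 from the first capital on. In OAZ1 the first frame runs for 68 codons up to the stop, and in OAZ2 for 32. GENCODE writes the frameshift into the exons, in that the T that opens the stop codon, at position 2271443 of chromosome 19 and at position 64691515 of chromosome 15, is left out of OAZ1-002, OAZ2-001 and OAZ2-007 as a gap of 1 base. The coding transcripts OAZ1-002 and OAZ2-001 had the same lengths, of 1148 and 1934 bases, in the table as in release 44.

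Although the site is shared, the reads fell on different kinds of transcript. In OAZ1, the transcript that omits the base had 349 normalized reads, 11.9% of the gene's reads, while 4 transcripts that hold it had 85.6%. In OAZ2, a pair of transcripts that omit the base had 88.4% and 4 transcripts that hold it had 8.79%. The transcripts that lack the region had 2.50% in OAZ1 and 2.84% in OAZ2. Most OAZ1 reads, 2396 of them or 81.8%, were on OAZ1-009, a transcript of 857 bases annotated as retained intron. It has 543 bases in common with OAZ1-002 and 309 bases that lie between the exons of OAZ1-002, among them the omitted frameshift base. It lacks 605 bases of OAZ1-002, which include the last 2 exons of that transcript. With protein-coding transcripts alone, the OAZ1 level was at percentile 75.6 of genes and no longer the highest of the 9. How the mapping and the division of shared reads treat the omitted base was not tested.

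**Figure D3:**
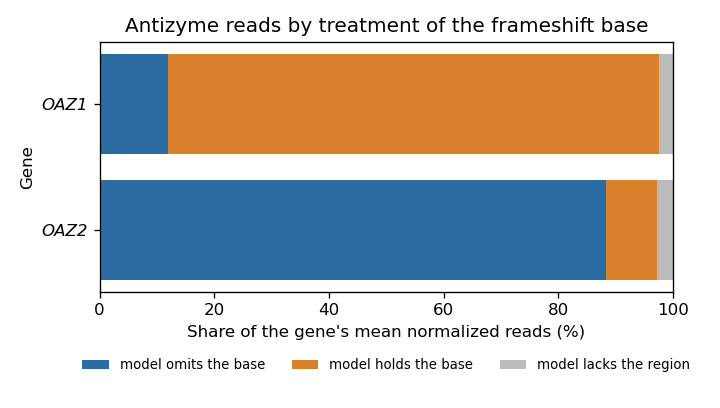
Share of each antizyme gene's mean normalized reads (horizontal axis, percent) on transcripts that omit the frameshift base, hold it or lack that region. Transcripts that omit it took 11.9% of the OAZ1 reads and 88.4% of the OAZ2 reads.

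**Figure D4:**
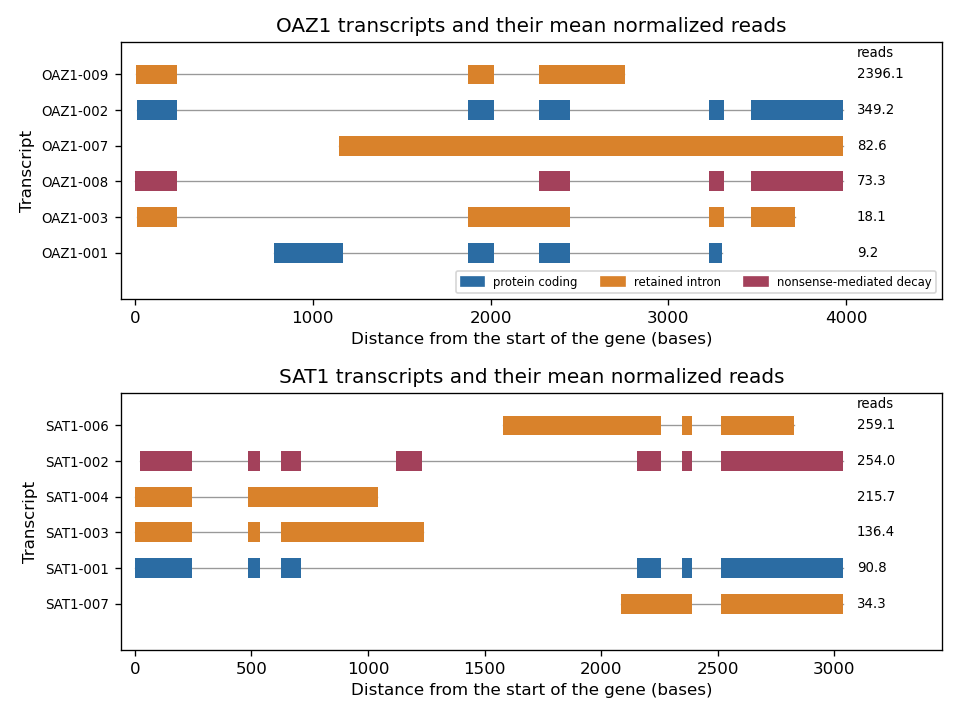
Exons (boxes) of the listed OAZ1 and SAT1 transcripts found in GENCODE release 44, against distance from the start of the gene in bases, coloured by the type in that release, with the authors' mean normalized reads at the right. In both genes the transcript with the most reads, OAZ1-009 with 2396 and SAT1-006 with 259, is of the retained-intron type and not the full-length coding one.

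AZIN1 (chr8:102826111-102893864, minus strand) had a level of 1388, below both antizymes and at 0.587 times that of ODC1. With protein-coding transcripts only, AZIN1 was 5th of the 9 genes, above OAZ1 at 7th. The AZIN1 reads were divided over a pair of coding transcripts that share a coding length of 1347 bases. AZIN1-001, with a 3′UTR of 2259 bases, had 2435 reads and AZIN1-002, with a 3′UTR of 744 bases, had 1911. Per kilobase the form with the shorter 3′UTR held 56.5% of the level of these forms. These forms too differ in the 5′UTR, of 766 bases in AZIN1-002 and 590 in AZIN1-001. AZIN1-001 had 4721 bases as quantified by the authors and 4196 in release 44, so its UTR lengths may differ from those given. In OAZ2 the main coding transcript OAZ2-001, with 2257 reads, held 84.2% of the gene's reads.

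Since KH-3 acts on HuR, which binds AU-rich elements, the pentamer AUUUA was counted on the mRNA strand of the 3′UTR of the most abundant coding transcript of each gene whose coding sequence is complete in release 44, with overlapping matches counted separately. It was present in 7 of the 9 genes and in 72.6% of the 3′UTRs of 11868 genes of the table. ODC1 and SMOX had none, and the longer ODC1 3′UTR of 756 bases had none either. AZIN1 had 11 matches, a number that 9.56% of the 1810 genes with a 3′UTR of like length (0.8 to 1.25 times) reached. Its transcript AZIN1-001 was longer as quantified by the authors than in release 44, so this count and its like-length genes could change. AMD1 had 6, which 39.9% of its 1769 like-length genes reached, and SAT1 had 2, which 16.1% of 978 reached. The transcript was chosen by reads, and the forms of AMD1 and AZIN1 with the higher level per kilobase are the shorter ones. Of these, AMD1-005 had 0 matches and AZIN1-002 had 7. OAZ2 had 2 matches and SRM, SMS and OAZ1 had 1 each, numbers that 40.1% to 59.0% of their like-length genes reached. The match in the OAZ1 coding transcript lies in a 3′UTR whose exon the most abundant OAZ1 transcript lacks.

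**Figure D5:**
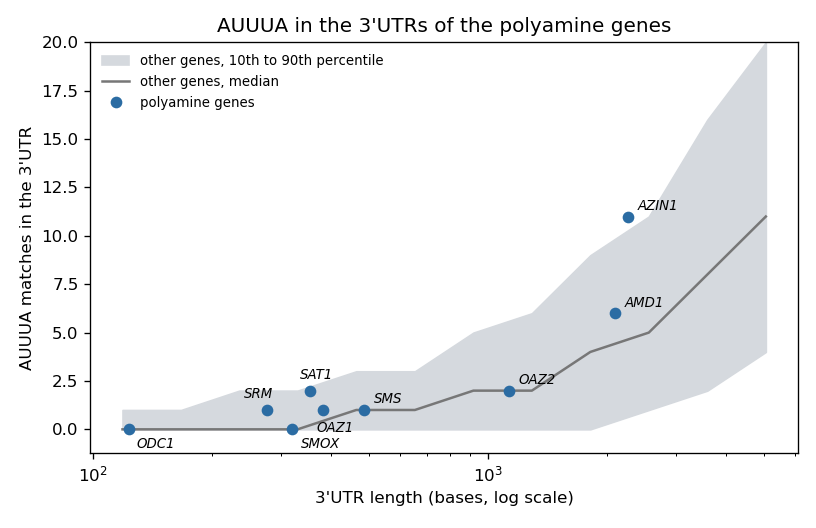
AUUUA matches in the 3′UTR (vertical axis) against its length in bases (horizontal axis, log scale) for the 9 polyamine genes, over the median and the 10th to 90th percentile of the other genes in bins of length. AZIN1 with 11 matches equals the 90th percentile of its own bin and is drawn just above the line that joins the bins, and ODC1 and SMOX lie at 0.

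The heptamer UAUUUAU, which holds AUUUA, was found once in each of SRM and AMD1, and in none of the other 7 genes. The AMD1 site is in AMD1-003, and AMD1-005, the form with the higher level per kilobase, does not have it. Among the 3′UTRs of like length 10.5% had it for SRM and 45.7% for AMD1, and among all 3′UTRs 35.1% had it. Both sites are shown for their context, with the heptamer in capitals (SRM at chr1:11054589-11054608, minus strand, and AMD1 at chr6:110895163-110895183, plus strand). In SRM the heptamer ends 6 bases before the end of the transcript, and in AMD1 it ends 537 bases before it.
SRM site: acacgtgTATTTATagcaaa
AMD1 site: ccttccgTATTTATaaatgaa

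The 3′UTR of SRM was otherwise poor in A and U, which made up 37.0% of it, against 65.3% in AMD1 and 66.9% in AZIN1. These matches are letters in the annotated sequence, and binding of HuR to them was not measured here.

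Translation of several of these mRNAs is known to respond to polyamines through short upstream reading frames. Only frames that start with AUG were searched for here, and whether those found respond to polyamines was not tested. An AUG was found in the 5′UTR of 6 of the 9 coding transcripts, and none in those of SRM, OAZ1 and SMOX, while 44.9% of the 11868 genes of the table had one. The 9 transcripts were again chosen by reads. AMD1-005 and AZIN1-002, the forms with the higher level per kilobase and 5′UTRs of 441 and 766 bases, were not searched. SAT1-001 and OAZ1-002 held only 9.06% and 11.9% of the reads of their genes. In AMD1-003 the only upstream AUG starts at base 12 of a 5′UTR of 321 bases and opens a frame of 6 codons. ODC1 had 5 upstream AUGs in 434 bases, the first of which, at base 127, opens a frame of 18 codons. AZIN1 had 3 upstream AUGs, OAZ2 and SAT1 had 2 each and SMS had 1. The SMS frame does not close before the start codon, so that a closed upstream frame was found in 5 genes. For 5′UTRs of like length the share of genes with at least 1 AUG was 90.0% for AZIN1, 84.8% for ODC1, 76.3% for AMD1, 61.5% for OAZ2, 51.2% for SAT1 and 33.6% for SMS. For the genes without one it was 50.5% for SMOX, 20.9% for OAZ1 and 19.0% for SRM.

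Around these 9 genes, a list of 27 further genes of the pathway was examined, of which 21 had rows. Of these 21, 17 lay above the median gene and 3 above the 90th percentile, with a median level of 467. Among the other polyamine enzymes and regulators, 5 of 9 were listed, the highest being OAT, an ornithine aminotransferase, at 1163, while the AZIN1 relative AZIN2 had 1.50. Of the 7 transport genes 6 were listed, led by CAV1, which encodes a caveolar protein linked to polyamine uptake, at 2599, while the polyamine transporters ATP13A2 and ATP13A3 had 543 and 751. Of the 7 genes of methionine supply and salvage 6 were listed, led by MAT2A, which makes the substrate of AMD1, at 2440, or 9.90 times the AMD1 level. MTAP, which recycles the by-product of the aminopropyl transfer, had no row and is not analysed here. All 4 genes of hypusine formation, the modification that uses spermidine, were listed, led by its target EIF5A at 517.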

How the data were processed

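TruSeq mRNA libraries of MDA-MB-231 cells (2 with DMSO, 2 with 10 µM KH-3, 24 h) were sequenced. The methods also name a 5 µM KH-3 group, and whether its libraries enter the deposited mean is not given in the sources used here. STAR alignment against GENCODE release 24 (hg38), eXpress quantification of each transcript and a DESeq2 comparison were done by the authors. Tool versions are not given in the sources used here. The deposited signal is a mean normalized read count per transcript, averaged over libraries by the authors, with a lowest value of 7.34 and a median of 50.8. The table also holds the authors' log2 fold change, p-value and q-value, which were not used. Values per library are not used here, so the depth of each library and the spread between replicates are unknown, no test was run, and no interval could be given.

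Each mean was divided by the transcript length in the table, in kilobases, and summed per gene. Exons, positions and UTRs came from GENCODE release 44, which held 37 of the 39 transcripts by ID without version, 29 of them with the same length. The remaining 8, among them ODC1-001, SMS-003 and AZIN1-001, had another length there, so their UTR lengths may differ from those the authors used. The reference coding transcript was MANE Select, or for OAZ1 and OAZ2 the most abundant coding one. Release 44 names 9 pseudogenes after these genes, none of which had a row. Reads of transcripts of a gene overlap, and their split was estimated by eXpress.

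All 9 genes and all markers are named, with the most abundant gene of each pathway list. ATP13A2, ATP13A3, AZIN2 and MTAP were named after their values were seen. The members and lists were chosen with earlier results of these data known. The planned protein comparison was not run. Levels and percentiles were tested on simulated data. Tables were handled with pandas 2.3.3 and numpy 2.4.6 under Python 3.11.15, and figures were drawn with matplotlib 3.10.9.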

Additional observations from a re-analysis of the deposited data

How the results depend on the processing

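The number of polyamine genes above the 90th percentile of genes, 7 of 9, was 5 with protein-coding transcripts only and 5 with reads not divided by length, 6 with the most abundant transcript only, and 7 against genes with a protein-coding transcript. With transcripts of a mean of at least 50 it was 6 of 8, since SMOX then has no transcript left. With release 44 lengths, an alternative chosen after the data were seen, it was 7. SMOX was last in all 5 alternatives that gave it a value, and AMD1 was 8th of the listed genes in all 6. OAZ1 moved most, from percentile 98.5 to 75.6 with protein-coding transcripts only. SAT1 went as low as 78.8 and SRM as low as 86.2, both with reads not divided by length. With protein-coding transcripts only, the types were those of the table, so SAT1-003 and SAT1-004 counted as coding. Protein-coding transcripts held 82.9% of the reads of the 9 genes, 81.2% by release 44 transcript types and 70.3% per kilobase, both chosen after the data were seen. AUUUA was in 7 genes, also with the longest 3′UTR of each gene, and UAUUUAU in 2. No paired analysis was possible because the table has no values per library. For the same reason the fits of KH-3 against DMSO and those leaving out a library were not run. The missing library values are the main limit. Neither the error of a level nor a difference between DMSO and KH-3 can be given from the mean alone.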
